A study of Homo sapiens with 8 samples.

Results

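The 34 genes described here encode the subunits of the 26S proteasome, out of 17341 genes with an assembled transcript in 1 or more of the 8 RNA-seq libraries of the study. They were chosen by name: 7 subunits of the alpha ring, 7 standard subunits of the beta ring, 3 immunoproteasome subunits, 6 base ATPases, 3 other base subunits and 8 lid subunits. The libraries come from the human HCC lines Hep3B and HepG2, with 1 library per condition. Cells of each line were left for 48 h with NaB (sodium pentaborate pentahydrate, a boron compound), with Cur (curcumin, from turmeric) and Pip (piperine, from pepper, used to help the uptake of Cur), with all 3 together (combination treatment), or without treatment (control). NaB was given at 1700 µM to Hep3B and at 2500 µM to HepG2, so the lines differ in its dose, while Cur at 30 µM and Pip at 6 µM were the same in both. Whether a control received the DMSO in which Cur and Pip were dissolved is not stated, and neither is whether the RNA of several cultures was pooled.

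The 26S proteasome is the protease that degrades proteins tagged with ubiquitin. Its core is a barrel in which alpha rings form the gate and beta rings hold the active sites: PSMB5 cleaves after hydrophobic residues, PSMB6 after acidic ones and PSMB7 after basic ones. The regulatory particle sits on the barrel, and its base unfolds the substrate with a ring of ATPases while its lid removes the ubiquitin. Interferon is known to induce PSMB8, PSMB9 and PSMB10, which take the places of PSMB5, PSMB6 and PSMB7 in newly made cores and so form the immunoproteasome, whose products include peptides for presentation on MHC class I. When proteasome activity is short, the factor NFE2L1, which binds DNA with small MAF proteins, is known to raise the subunit genes together.

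The level of a gene is given in FPKM (fragments per kilobase of transcript, scaled to the mapped fragments of the library), summed over the assembled transcripts that were assigned to it. A gene is called listed in a library that holds at least 1 such transcript, and a gene without one is at 0, which can be a transcript assigned elsewhere rather than a silent gene. An estimated 25600000 to 35700000 fragments stood behind each library, and transcripts of a single exon made up 14.7 to 34.1% of each assembly. Of 17 hepatocyte markers, 2 or 3 reached 1 FPKM in each of the 4 libraries labelled Hep3B and 14 to 17 did in each HepG2 library. Their summed level was 7.82 to 28.0 FPKM in the libraries labelled Hep3B and 6570 to 14700 FPKM in the HepG2 libraries, so the first 4 go against their label and are called the libraries labelled Hep3B throughout. With 1 library per condition no test within a line is possible. The 95% intervals of Cufflinks, where given, cover the estimation error within a library, not the spread between cultures, and fewer cells of a kind cannot be told apart from less RNA per cell.

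The standard subunits were among the more abundant genes of every library. The median FPKM over the listed standard subunits was 112 after NaB, 139 after Cur and Pip and 128 with the combination treatment in the libraries labelled Hep3B, against 128 in their control. In HepG2 it was 73.6 after NaB, 121 after Cur and Pip and 91.98 with the combination treatment, against 104 in the control. The median over all listed genes was 8.62 to 10.7 FPKM in the 8 libraries. Their FPKM differed 8.03-fold to 19.8-fold between the highest and the lowest within a library. PSMD12, a lid subunit, was the lowest standard subunit in 7 of the 8 libraries and PSMB2, a beta ring subunit, in HepG2 after the combination treatment. PSMB4, PSMB7, PSMB5, PSMA6, PSMB3 and PSMD2 had the highest medians over the 8 libraries among the 27 standard subunits listed in all of them, at 212 to 313 FPKM. The ranks of the 31 standard subunits in the control labelled Hep3B and the HepG2 control had a Spearman rho of 0.85, a description across genes, which are not independent replicates.

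**Figure D1:**
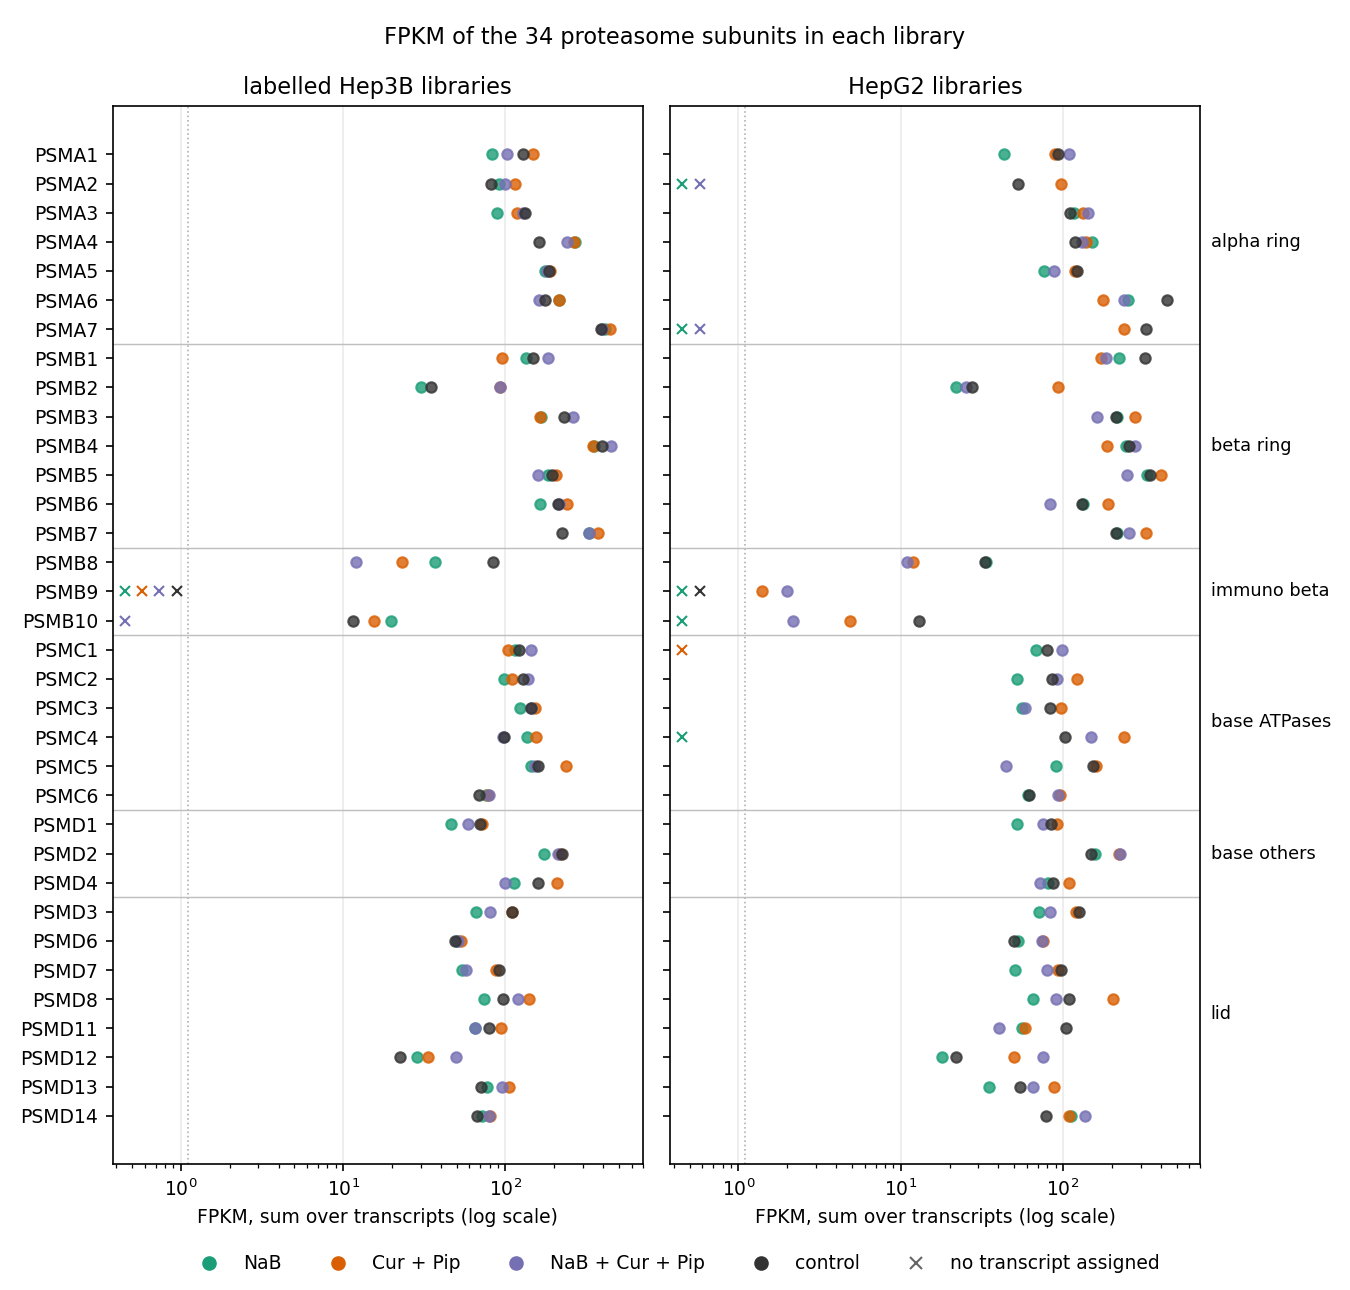
Level of each of the 34 subunits (rows, grouped by subcomplex) in the libraries labelled Hep3B (left) and in the HepG2 libraries (right), as FPKM on a log axis; a point is 1 library, and a cross left of the dotted line marks a library with no transcript assigned, at no value. The standard subunits have medians of 73.6 to 139 FPKM in the 8 libraries, PSMB8 lies below them with the control labelled Hep3B farthest to the right, and PSMB9 has points in the HepG2 libraries alone.

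The subunits past the fold threshold used here are counted beside the share of all genes past it. The threshold was an absolute log2 fold change over 1.5 on log2(FPKM + 1) with no p criterion, a scale on which low genes appear to change less. After NaB, 0 of 33 subunits tested passed it in either direction in the libraries labelled Hep3B, against 5.02% of 13387 genes higher and 7.07% lower. In HepG2, 0 of 34 were past it upwards and 4 downwards after NaB, against 4.76% of 13475 genes higher and 5.1% lower, and those 4 had no assigned transcript in the treated library. After Cur and Pip, 0 subunits were higher and 1 was lower in the libraries labelled Hep3B (6.55 and 4.01% of genes), and 1 was higher and 1 lower in HepG2 (9.01 and 10.2%). After the combination treatment, 0 were higher and 2 lower in the libraries labelled Hep3B (6.87 and 8.21%), and 2 were higher and 5 lower in HepG2 (8.07 and 11.5%). The 2 higher in HepG2 include PSMB9, at 2.00 FPKM there and without an assigned transcript in the control. Of the 13 calls downwards, 8 were subunits without an assigned transcript, and PSMB8 made up 3 of the other 5. Among subunits listed in both HepG2 libraries, 0 of 29 were past the threshold downwards after NaB, against 1.79% of 11151 genes, and 3 of 31 after the combination treatment, against 7.27% of 10722 genes. All 33 subunits tested were listed in both libraries labelled Hep3B after NaB and after Cur and Pip. Among genes so listed there, 1.68% of 11088 were higher and 4.14% lower after NaB. After Cur and Pip 1.82% of 11405 were higher and 1.46% lower.

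The median log2 fold change of the subunits was small in each comparison. Over 33 subunits in the libraries labelled Hep3B it was −0.16 after NaB, 0.18 after Cur and Pip and 0.02 with the combination treatment, where the median of all genes was −0.12, 0.00 and −0.05. In HepG2 it was −0.41, 0.25 and −0.21 over 34 subunits in the same order of treatments, where the median of all genes was 0.00 each time. Among the 29 subunits listed in both HepG2 libraries, the median after NaB was −0.27, and 20 of the 29 (69.0%) were lower after NaB than in the control, against 48.9% of 11151 genes. The intervals did not overlap for 16 of these 29 on the lower side and for 2 on the higher side, against 31.5 and 33.5% of genes. After Cur and Pip the subunits lay to the other side: 23 of 33 were higher in the libraries labelled Hep3B and 21 of 32 in HepG2. The shares that were lower were 30.3 and 34.4% of the subunits, against 51.7 and 51.1% of genes. Intervals were apart on the higher side for 18 and 19 subunits, against 29.0 and 37.0% of genes, and on the lower side for 7 and 7, against 33.5 and 40.6%. Comparisons within a line share their control library. Median-of-ratios scaling gave a median of 0.00 for all genes and 0.02 for the subunits after NaB in the libraries labelled Hep3B, so their lower level there had the size of the general shift.

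**Figure D2:**
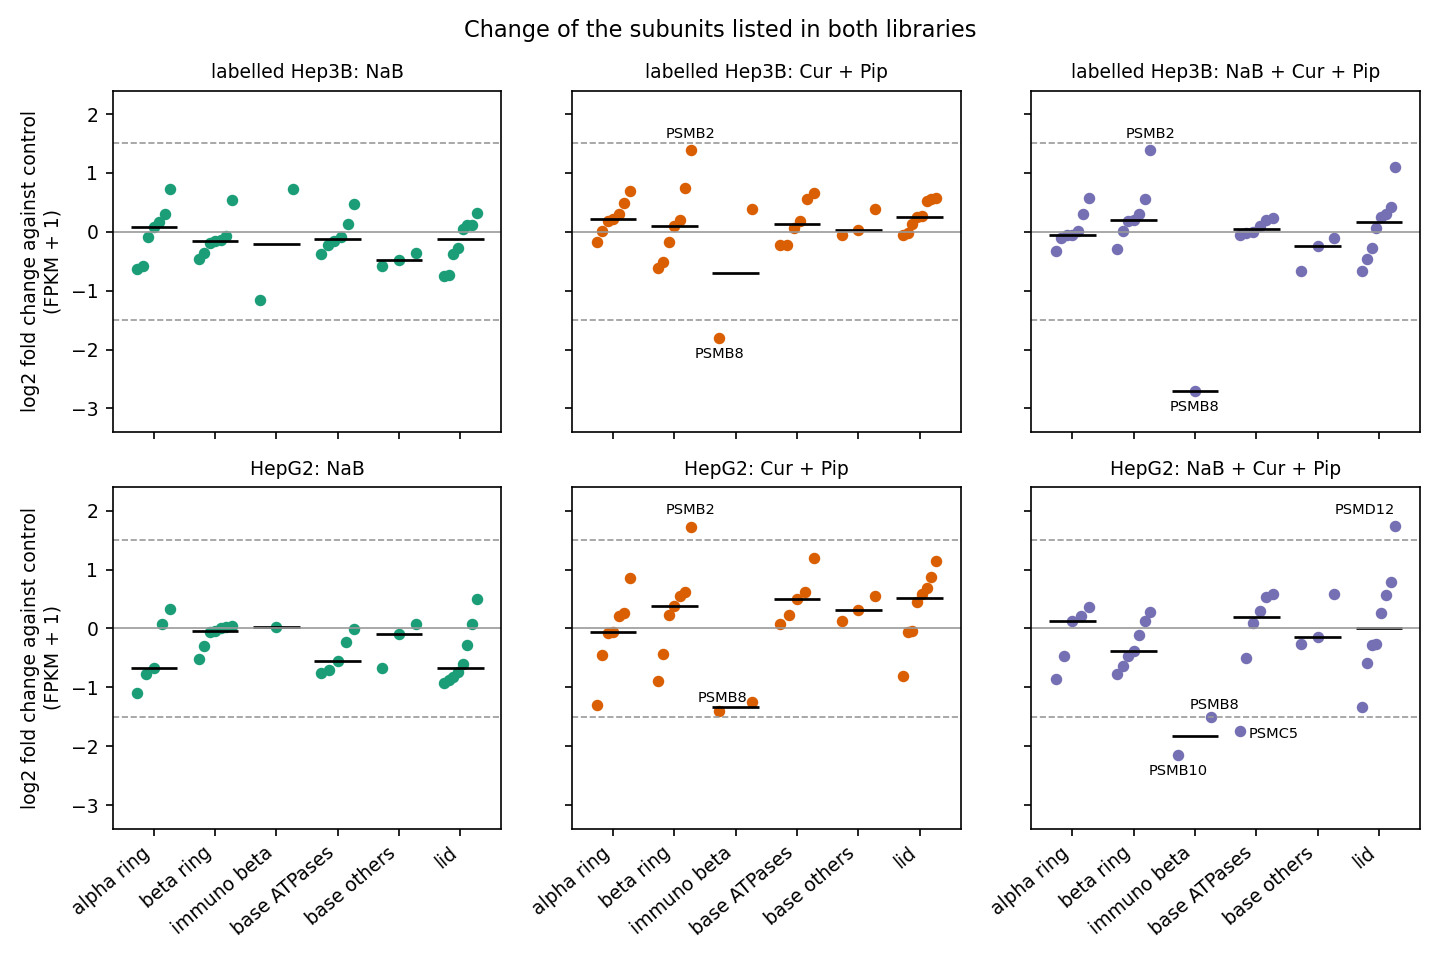
Log2 fold change against the control of the same line on log2(FPKM + 1) for subunits listed in both libraries (points), by subcomplex, in the libraries labelled Hep3B (top) and HepG2 (bottom); bars are medians of a subcomplex and dashed lines the threshold of 1.5. PSMB8 has the lowest point after Cur and Pip and with the combination treatment in the libraries labelled Hep3B, at −1.80 and −2.70, and PSMB2 has the highest, at 1.39 in both.

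The largest drop among listed subunits in the libraries labelled Hep3B was that of PSMB8, the inducible counterpart of PSMB5 (ENSG00000204264.12, minus strand, chr6:32840717-32844679 of GRCh38, in the MHC region). PSMB8 was at 36.8 FPKM after NaB, 23.2 FPKM after Cur and Pip and 11.96 FPKM after the combination treatment in the libraries labelled Hep3B, against 83.4 FPKM in their control. In HepG2 it was at 33.7 FPKM after NaB, 11.9 FPKM after Cur and Pip and 10.9 FPKM after the combination treatment, against 32.9 FPKM in the control. The libraries with Cur and Pip were thus low in both lines, while the NaB library was low in the libraries labelled Hep3B and level with its control in HepG2. The log2 fold change after the combination treatment was −2.70 in the libraries labelled Hep3B (95% interval from −2.88 to −2.54) and −1.51 in HepG2 (from −1.74 to −1.30). After Cur and Pip it was −1.80 (from −1.95 to −1.66) and −1.40 (from −1.59 to −1.21), the second within the threshold. After NaB it was −1.16 (from −1.29 to −1.03) in the libraries labelled Hep3B and 0.03 (from −0.12 to 0.19) in HepG2. PSMB8 kept 14.3% of its control level after the combination treatment in the libraries labelled Hep3B and 33.1% in HepG2, 14.2 and 31.4% by the depth over its coding exons, and 14.9 and 32.1% by length-free abundance, which is FPKM times the assembled length.

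The transcripts assembled over PSMB8 began at an upstream or at a downstream first exon further into the gene, and both were lower after Cur and Pip and with the combination treatment than in the control of either line. Those with the upstream start were at 26.2, 6.77 and 5.35 FPKM after NaB, after Cur and Pip and with the combination treatment in the libraries labelled Hep3B, against 34.1 FPKM in their control. In HepG2 they were at 12.3, 3.71 and 5.21 FPKM in the same order, against 6.70 FPKM in the control. Those with the downstream start were at 10.7, 16.4 and 6.61 FPKM across the libraries labelled Hep3B, against 49.4 FPKM in their control, and at 21.4, 8.15 and 5.70 FPKM in HepG2, against 26.2 FPKM in the control. Cufflinks divides the reads that both forms share by its model, so the split is less certain than the sum. The fall in the libraries labelled Hep3B went with that of fibroblast markers: 4 or 5 of 6 were listed there, and their summed level was 86.0, 61.1 and 38.9 FPKM after NaB, after Cur and Pip and with the combination treatment, against 305 FPKM in the control, most of it DCN and LUM. In HepG2 DCN, LUM, COL1A2 and COL3A1 were at 0 in all 4 libraries, and the list summed to 2.29 to 6.03 FPKM. The list of 11 leukocyte markers had 1 or 2 listed and summed to 12.4, 46.0 and 1.49 FPKM in the libraries labelled Hep3B, in the same order, against 15.7 FPKM in their control, most of it CD68 except after the combination treatment. In HepG2, 1 to 4 were listed and the sum was 522, 153 and 258 FPKM, against 1390 FPKM in the control, nearly all of it LYZ, the gene of lysozyme. PTPRC, CD3E, CD8A, MS4A1 and TYROBP, which define leukocytes or their main classes, were at 0 in all 8 libraries. Assembly also differed from the control in every treated library. In HepG2 single-exon transcripts made up 22.7% after NaB, 34.1% after Cur and Pip and 32.2% with the combination treatment, against 16.4% in the control. In the same order 80.1, 70.4 and 70.5% of HepG2 transcripts were assigned, against 85.5% in the control. Single-exon transcripts made up 19.1, 22.4 and 28.4% in the libraries labelled Hep3B, against 14.7% in their control, with 86.1, 83.1 and 77.1% assigned, against 88.1%. The HepG2 libraries low in PSMB8 also differed in hepatocyte genes. The 14 hepatocyte markers listed in both libraries had a median log2 fold change of −1.32 after Cur and Pip and −1.45 with the combination treatment in HepG2, and all 14 were below the control. A further 3 of the 17, not listed in the HepG2 control, were past the threshold upwards after Cur and Pip (9.01% of genes were higher). With the combination treatment 2 such markers were (8.07% of genes). The part of these values in the result for PSMB8 was not tested.

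PSMB5, the standard counterpart, lay nearer to its controls by FPKM, as the plot of both genes shows. It was at 183 FPKM after NaB, 206 FPKM after Cur and Pip and 158 FPKM after the combination treatment in the libraries labelled Hep3B, against 193 FPKM in their control. In HepG2 it was at 330, 400 and 247 FPKM in that order, against 341 FPKM in the control. All 6 log2 fold changes lay between −0.46 and 0.23 by FPKM. By length-free abundance PSMB5 was at 34.7% of its control after the combination treatment in HepG2, near the 32.1% of PSMB8, and past the threshold downwards at −1.519 (13.8% of genes were lower by that quantity). The assigned PSMB5 transcript there was 610 nt long, against 1271 nt in the control. A further transcript of 4463 nt over PSMB5, at 53.0 FPKM, was assigned to no gene, so both FPKM and length-free abundance leave it out. By the depth over coding exons, which counts it, PSMB5 was at 68.0% of its control. In the other 5 comparisons PSMB5 was at 85.0 to 109% by length-free abundance. PSMB8 as a share of PSMB8 and PSMB5 together was 16.7% after NaB, 10.1% after Cur and Pip and 7.04% with the combination treatment in the libraries labelled Hep3B, against 30.2% in their control. In HepG2 the share was 9.27, 2.88 and 4.23% in that order, against 8.80% in the control. The HepG2 control was thus below every library labelled Hep3B but the combination treatment in this share. By length-free abundance the share was 18.2, 9.16 and 5.97% in the libraries labelled Hep3B, against 28.2% in their control. In HepG2 it was 9.68, 2.91 and 7.60%, against 8.18% in the control, so the combination library lay close to its control by that quantity. By the depth over coding exons the share in that library was 4.12%, against 8.51% in the HepG2 control.

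**Figure D3:**
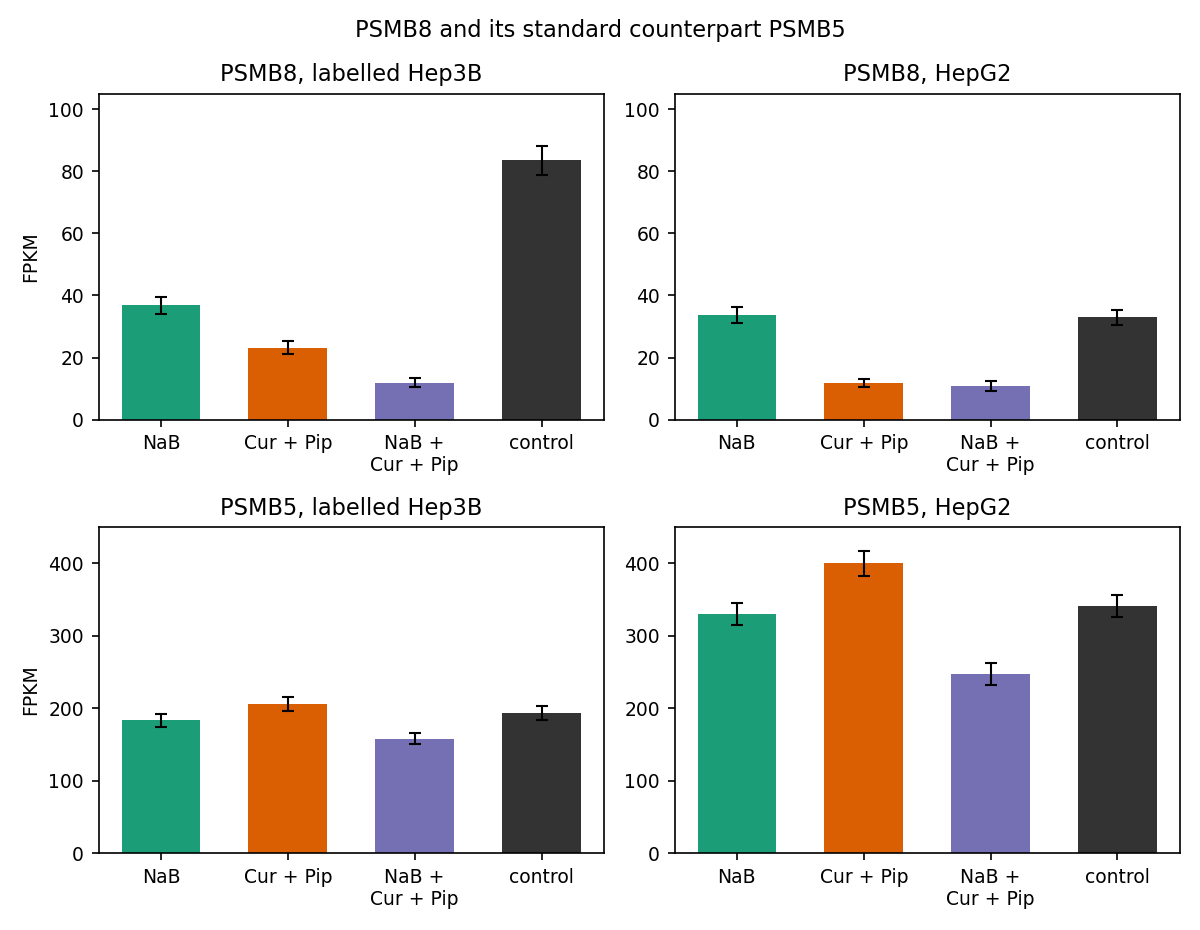
FPKM of PSMB8 (top) and PSMB5 (bottom) in the libraries labelled Hep3B (left) and HepG2 (right), 1 bar per library with the 95% interval of Cufflinks. PSMB8 stands at 11.96 and 10.9 FPKM after the combination treatment, against 83.4 and 32.9 FPKM in the controls, while the PSMB5 bars stay between 158 and 206 FPKM on the left and between 247 and 400 FPKM on the right.

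The other immunoproteasome subunits were scarce. PSMB9, the counterpart of PSMB6, was listed in HepG2 alone, at 1.39 FPKM after Cur and Pip (interval from 0.91 to 1.87) and at 2.00 FPKM after the combination treatment (from 1.32 to 2.67), and at 0 after NaB and in the control. It was at 0 in the 4 libraries labelled Hep3B and could not be tested there. PSMB6 was at 164, 240 and 212 FPKM after NaB, after Cur and Pip and with the combination treatment in the libraries labelled Hep3B, against 209 FPKM in their control, and at 133, 190 and 83.1 FPKM in HepG2, against 130 FPKM in the control. PSMB10, the counterpart of PSMB7, was at 19.8 FPKM after NaB, 15.5 FPKM after Cur and Pip and 0 with the combination treatment in the libraries labelled Hep3B, against 11.6 FPKM in their control. In HepG2 it was at 0, 4.88 and 2.17 FPKM in that order, against 13.0 FPKM in the control. The HepG2 treated libraries were all below their control, whereas those labelled Hep3B lay on both sides. The gene overlaps a readthrough locus (ENSG00000261884) that took some of its transcripts in 3 libraries, and in the combination library labelled Hep3B it lay in a transcript of 33 exons that was assigned to SLC12A4. By the depth over its coding exons PSMB10 was at 14.99, 11.2 and 2.55 FPKM across the libraries labelled Hep3B, against 11.6 FPKM in their control, and at 0, 5.07 and 5.29 FPKM in HepG2, against 13.0 FPKM in the control. PSMB7 was at 325, 371 and 329 FPKM across the libraries labelled Hep3B, against 222 FPKM in their control, and at 216, 324 and 256 FPKM in HepG2, against 212 FPKM in the control, higher than its control in 6 of 6 comparisons by 0.03 to 0.74 on the log2 scale.

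The sequences before the RefSeq start of 4 subunits are shown because these subunits differed by FPKM after the combination treatment: PSMB8 and PSMB10 were lower, PSMB5 lay within the threshold and PSMD12 was higher. Each runs from 250 bases before to 50 bases after the start on GRCh38.p14, all on the minus strand: PSMB8 at chr6:32844630-32844929, PSMB5 at chr14:23035171-23035470, PSMB10 at chr16:67936801-67937100 and PSMD12 at chr17:67366528-67366827. Capitals mark matches, on either strand, to 4 motifs that are known from this pathway: TGACNNNGC, the core of the antioxidant response element; CCAAT, the NF-Y box; TTCNNNGAA, the GAS element; and the core of the interferon-stimulated response element (ISRE), which is GAAA and a second GAAA parted by NN.
PSMB8: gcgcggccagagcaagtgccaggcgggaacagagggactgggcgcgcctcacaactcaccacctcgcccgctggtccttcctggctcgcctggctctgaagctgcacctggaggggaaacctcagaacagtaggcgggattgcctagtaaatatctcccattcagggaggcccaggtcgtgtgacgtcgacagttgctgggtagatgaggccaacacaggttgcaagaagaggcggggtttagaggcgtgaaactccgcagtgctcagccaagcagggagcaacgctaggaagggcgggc
PSMB5: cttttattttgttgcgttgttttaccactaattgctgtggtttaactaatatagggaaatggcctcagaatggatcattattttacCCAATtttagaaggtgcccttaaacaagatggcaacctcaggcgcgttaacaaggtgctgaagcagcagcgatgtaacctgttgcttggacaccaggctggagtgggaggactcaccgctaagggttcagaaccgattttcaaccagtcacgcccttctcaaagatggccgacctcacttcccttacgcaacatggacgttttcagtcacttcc
PSMB10: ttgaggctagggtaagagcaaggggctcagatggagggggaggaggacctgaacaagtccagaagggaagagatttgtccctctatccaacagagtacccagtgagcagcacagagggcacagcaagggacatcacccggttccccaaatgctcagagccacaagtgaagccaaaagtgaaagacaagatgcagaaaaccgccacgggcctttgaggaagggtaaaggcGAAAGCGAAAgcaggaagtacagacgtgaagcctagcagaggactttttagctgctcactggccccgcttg
PSMD12: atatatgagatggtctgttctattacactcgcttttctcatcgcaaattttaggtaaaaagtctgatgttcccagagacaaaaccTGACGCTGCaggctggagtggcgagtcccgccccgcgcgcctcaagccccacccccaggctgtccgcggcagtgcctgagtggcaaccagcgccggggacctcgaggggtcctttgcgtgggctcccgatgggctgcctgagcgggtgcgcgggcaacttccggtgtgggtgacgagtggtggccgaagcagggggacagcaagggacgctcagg
The stretch of PSMB8 held a match to 0 of the 4 motifs, that of PSMB5 held CCAAT at −164, that of PSMB10 held GAAAGCGAAA at −21 and that of PSMD12 held TGACGCTGC at −165 from the start. The stretch of PSMB8 lies at its upstream start, and the sequence before its downstream start was not searched. Upstream-start transcripts made up 40.8% of PSMB8 FPKM in the control labelled Hep3B and 20.4% in the HepG2 control. Of the 34 subunits, 29 had an entry. TGACNNNGC was found in 6 of them (20.7%), against 13.6% of 27305 RefSeq windows of the same length, and CCAAT in 15 (51.7%), against 35.7%. TTCNNNGAA was found in 3 (10.3%), against 7.88%, and the ISRE core in 3 (10.3%), against 3.65%. The 4 motifs do not contain each other, a match is a description of letters and not a site, and a window with no match says nothing about the factor.

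Among the alpha ring subunits, which form the gate and the outer wall of the core, PSMA4 was higher than its control in 6 of 6 comparisons. It was at 269 FPKM after NaB, 263 FPKM after Cur and Pip and 240 FPKM after the combination treatment in the libraries labelled Hep3B, against 162 FPKM in their control, and at 150, 138 and 130 FPKM in HepG2, against 119 FPKM in the control. Its log2 fold changes of 0.13 to 0.73 held no call, and by length-free abundance 1 of the 6 was below 0. PSMA1 had the lowest log2 fold change among the listed subunits after NaB in HepG2, at −1.09. It was at 82.5, 148 and 102 FPKM across the libraries labelled Hep3B after NaB, after Cur and Pip and with the combination treatment, against 128 FPKM in their control, and at 43.3, 89.0 and 108 FPKM in HepG2, against 93.5 FPKM in the control. PSMA2 and PSMA7 had no assigned transcript in HepG2 after NaB and after the combination treatment. PSMA2 was at 90.8, 114 and 100 FPKM across the libraries labelled Hep3B, against 81.0 FPKM in their control, and at 0, 97.1 and 0 FPKM in HepG2, against 53.0 FPKM in the control. In the HepG2 libraries at 0 a transcript of 8 exons over the gene, at 136 and 125 FPKM, was assigned to an overlapping readthrough locus (ENSG00000256646). In the NaB library labelled Hep3B a further transcript at 120 FPKM went to that locus, and the depth over coding exons of PSMA2 was 152 there, against 76.3 in the control. PSMA7 was at 411, 440 and 393 FPKM across the libraries labelled Hep3B, against 387 FPKM in their control, and at 0, 237 and 0 FPKM in HepG2, against 325 FPKM in the control. In those HepG2 libraries transcripts at 214 and 219 FPKM held 48.2 and 45.4% of their bases in PSMA7, short of the 50% that assignment asked for. By the depth over coding exons the log2 fold changes were 1.43 and 1.31 for PSMA2 and −0.61 and −0.57 for PSMA7, so both calls in HepG2 rest on assignment and that of PSMA2 turned its direction.

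PSMB2, which belongs to the inner ring but cuts no substrate, had the highest log2 fold change among listed subunits after Cur and Pip in both lines. It was at 30.2 FPKM after NaB, 92.6 FPKM after Cur and Pip and 92.3 FPKM after the combination treatment in the libraries labelled Hep3B, against 34.7 FPKM in their control. The HepG2 libraries had it at 22.0, 92.5 and 25.3 FPKM in that order, against 27.3 FPKM in the control. The 3 libraries at 92.3 to 92.6 FPKM stood apart from the other 5. The log2 fold change was 1.39 in the libraries labelled Hep3B after Cur and Pip and again after the combination treatment, and 1.72 after Cur and Pip in HepG2. In these 3 libraries the assembled transcripts averaged 1708 to 2152 nt when weighted by FPKM, against 4480 to 4954 nt in the other 5. By length-free abundance PSMB2 was at 129% of its control in HepG2 and at 128 and 123% in the libraries labelled Hep3B, and no comparison was past the threshold. The remaining standard beta subunits, PSMB1, PSMB3 and PSMB4, had log2 fold changes between −0.89 and 0.38.

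The base ATPases thread the unfolded substrate into the core. PSMC5 was past the threshold after the combination treatment in HepG2, at −1.74. It was at 143, 236 and 153 FPKM after NaB, after Cur and Pip and with the combination treatment in the libraries labelled Hep3B, against 160 FPKM in their control, and at 90.0, 159 and 44.8 FPKM in HepG2, against 152 FPKM in the control. The HepG2 combination library held a PSMC5 transcript of 2355 nt, against 1288 nt in the control, and by length-free abundance the gene was at 53.8% of its control and by FPKM at 29.4%. PSMC1 was at 114, 104 and 143 FPKM across the libraries labelled Hep3B, against 122 FPKM in their control, and at 68.3, 0 and 97.9 FPKM in HepG2, against 79.9 FPKM in the control. PSMC4 was at 136, 155 and 96.9 FPKM across the libraries labelled Hep3B, against 97.4 FPKM in their control, and at 0, 239 and 149 FPKM in HepG2, against 103 FPKM in the control. In the HepG2 libraries where they were at 0, transcripts at 53.1 and 44.4 FPKM held 46.8% of their bases in PSMC1 and 44.7% in PSMC4. By the depth over coding exons the log2 fold changes were −0.58 for PSMC1 and −1.20 for PSMC4. After NaB in HepG2 all 5 listed ATPases were below the control, by −0.02 to −0.75 on the log2 scale. Of the other base subunits, PSMD4, a ubiquitin receptor, PSMD1 and PSMD2, scaffolds of the base, had log2 fold changes between −0.67 and 0.58.

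The lid held both the subunits that were lower than their control in 6 of 6 comparisons, PSMD3 and PSMD7, and 2 of the 4 that were higher in 6 of 6, PSMD6 and PSMD14. PSMD14, the enzyme that cuts ubiquitin chains off the substrate, had the highest log2 fold change among listed subunits after NaB in HepG2, at 0.51. It was at 71.7, 80.2 and 79.5 FPKM after NaB, after Cur and Pip and with the combination treatment in the libraries labelled Hep3B, against 66.3 FPKM in their control, and at 113, 108 and 137 FPKM in HepG2, against 78.9 FPKM in the control. PSMD7, which pairs with PSMD14, had log2 fold changes of −0.75, −0.06 and −0.66 in the libraries labelled Hep3B and of −0.93, −0.05 and −0.28 in HepG2. PSMD3, a scaffold of the lid, had −0.74, −0.01 and −0.46 in the libraries labelled Hep3B and −0.83, −0.06 and −0.59 in HepG2. PSMD7 was below its control in 6 of 6 comparisons by length-free abundance too, and PSMD3 in 4 of 6 by that quantity and in 3 of 6 by the largest transcript. The length-free log2 fold changes of PSMD7 in the libraries labelled Hep3B were −1.698, −1.050 and −1.518, past the threshold after NaB and after the combination treatment (9.43 and 10.3% of genes were lower by that quantity), where its transcript was 796 to 872 nt long in the treated libraries, against 1591 nt in the control. By the depth over coding exons they were −1.25, −0.62 and −1.04. By FPKM no lid subunit but PSMD12 was past the threshold in a comparison.

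PSMD12, the lid subunit with the lowest levels, had the highest log2 fold change among listed subunits after the combination treatment in HepG2, at 1.73. It was at 28.4 FPKM after NaB, 33.3 FPKM after Cur and Pip and 49.5 FPKM after the combination treatment in the libraries labelled Hep3B, against 22.4 FPKM in their control. The HepG2 libraries had it at 17.9, 49.8 and 75.1 FPKM in that order, against 21.9 FPKM in the control. The libraries with Cur and Pip were the highest of each line, with the combination treatment above Cur and Pip alone. Both combination libraries held a further PSMD12 transcript, of 933 nt in the library labelled Hep3B and of 1226 nt in HepG2, beside one of 4364 to 4450 nt that every library had. By length-free abundance PSMD12 was at 147% of its control after the combination treatment in the libraries labelled Hep3B and at 207% in HepG2, against 149 and 232% after Cur and Pip, so the combination libraries did not stand above Cur and Pip by that quantity.

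**Figure D4:**
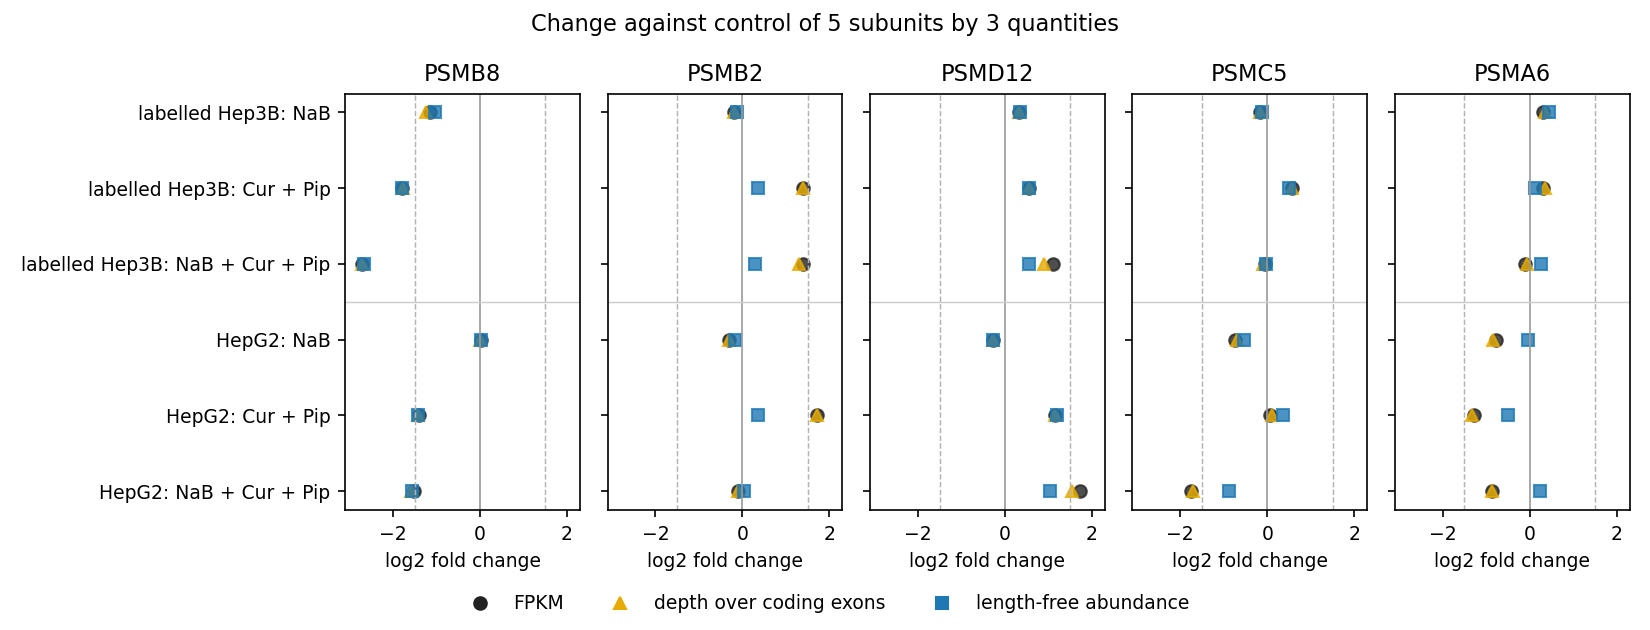
Log2 fold change against control (x axis) of 5 subunits in the 6 comparisons (rows) by FPKM, by depth over coding exons and by length-free abundance; dashed lines mark 1.5. The 3 marks of PSMB8 lie together in every row, whereas those of PSMB2, PSMD12, PSMC5 and PSMA6 separate in some rows, as for PSMB2 after Cur and Pip in HepG2, at 1.72 by FPKM and 129% of control by length-free abundance.

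A limma fit across 13888 genes on log2(FPKM + 1), with the line as a term, asked which changes the lines share. It called 0 genes after NaB, 5 after Cur and Pip and 16 with the combination treatment at a Benjamini-Hochberg adjusted p under 0.05. For NaB these were 0.0% of genes in each direction, for Cur and Pip 0.0216% upwards and 0.0144% downwards, and for the combination treatment 0.036% upwards and 0.0792% downwards, with 734, 921 and 1632 genes at an unadjusted p under 0.05. It called 0 of 34 subunits in each of the 3, with 2 subunits at an unadjusted p under 0.05 each time. PSMB8 had the lowest p among the subunits after the combination treatment, with a limma log2 difference of −2.11 (SE 0.42, unadjusted p = 0.0039, adjusted p = 0.352), lower in 2 of 2 lines. Its log2 difference after Cur and Pip was −1.60 (SE 0.42, limma adjusted p = 0.675), also lower in 2 of 2 lines, and after NaB −0.56 (SE 0.42, limma adjusted p = 0.873). Over the alternatives the adjusted p after the combination treatment ran from 0.148 to 0.588. PSMD12 had a limma log2 difference of 1.42 after the combination treatment (SE 0.41, adjusted p = 0.372). After NaB the lowest p was that of PSMD3, at −0.78 (SE 0.27, limma adjusted p = 0.867), with PSMD7 at −0.84 (SE 0.30) beside it. The excess of the combination treatment over the sum of the single treatments was called for 3 genes (0.0144% higher and 0.0072% lower) and for 0 subunits, with 364 genes and 0 subunits at an unadjusted p under 0.05, and for PSMB8 it was 0.06 on the log2 scale (SE 0.59, limma adjusted p = 0.9998).

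Subunit levels also differed between the 4 libraries labelled Hep3B and the 4 HepG2 libraries, matched by treatment in the same limma fit. Of the 34 subunits 3 were called higher in the libraries labelled Hep3B and 1 lower, against 16.3 and 12.4% of 13888 genes, and, since the libraries labelled Hep3B lack hepatocyte genes, this is given as a difference between libraries. PSMC3, a base ATPase, averaged 140 ± 12.3 FPKM in the libraries labelled Hep3B and 73.3 ± 19.9 FPKM in HepG2 (SD, n = 4 each, limma log2 difference 0.96, SE 0.22, adjusted p = 0.031). PSMA5 averaged 182 ± 6.42 FPKM in the libraries labelled Hep3B and 101 ± 22.5 FPKM in HepG2 (SD, n = 4 each, limma log2 difference 0.86, SE 0.22, adjusted p = 0.040). PSMA4 averaged 233 ± 49.3 FPKM in the libraries labelled Hep3B and 134 ± 13.2 FPKM in HepG2 (SD, n = 4 each, limma log2 difference 0.77, SE 0.21, adjusted p = 0.048). PSMB5 was the subunit that was lower, at 185 ± 20.3 FPKM in the libraries labelled Hep3B and 329 ± 62.9 FPKM in HepG2 (SD, n = 4 each, limma log2 difference −0.81, SE 0.20, adjusted p = 0.035). None of these 4 had overlapping levels between the lines. In all, 6 subunits lay without overlap on the higher side and 1 on the lower side, against 18.5 and 14.4% of genes. Leaving out any single library ended all 4 calls, with limma adjusted p-values of 0.061 to 0.138, and over the other alternatives they ran from 0.014 to 0.319. The 4 libraries of a line differ in treatment, and their SD holds that.

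**Figure D5:**
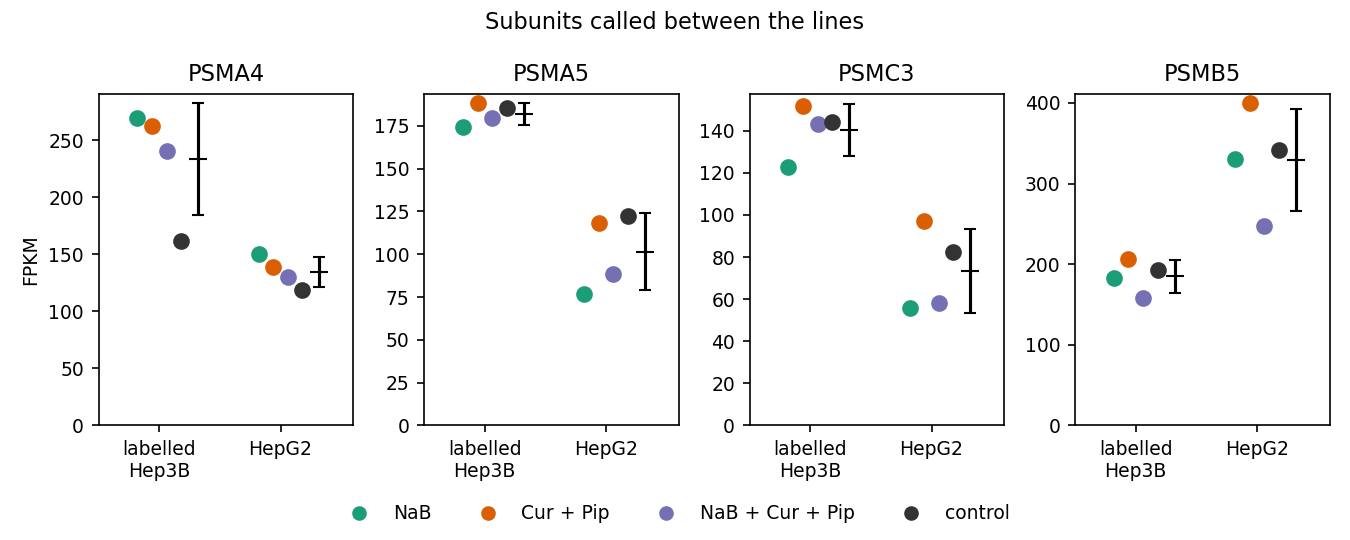
FPKM of the 4 subunits called between the lines, with the 4 libraries labelled Hep3B left of the 4 HepG2 libraries; points are libraries coloured by treatment, and the bar beside them is the mean with the SD. PSMA4, PSMA5 and PSMC3 are higher in every library labelled Hep3B than in any HepG2 library, and PSMB5 is lower.

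The subunits with the highest adjusted p in this comparison were PSMC6 and PSMD8. PSMC6 was at 76.0, 78.3 and 79.3 FPKM after NaB, after Cur and Pip and with the combination treatment in the libraries labelled Hep3B, against 68.9 FPKM in their control, and at 61.0, 95.5 and 93.0 FPKM in HepG2, against 61.7 FPKM in the control. PSMD8 was at 74.2, 139 and 120 FPKM across the libraries labelled Hep3B, against 96.3 FPKM in their control, and at 65.2, 202 and 91.0 FPKM in HepG2, against 109 FPKM in the control. PSMC3, in contrast, was at 123, 152 and 143 FPKM across the libraries labelled Hep3B, against 144 FPKM in their control, and at 55.6, 97.1 and 58.1 FPKM in HepG2, against 82.5 FPKM in the control. PSMB8 did not differ in this fit beyond its spread, with 38.9 ± 31.4 FPKM in the libraries labelled Hep3B and 22.3 ± 12.7 FPKM in HepG2 (SD, n = 4 each, limma adjusted p = 0.176).

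The genes that act around the particle were read from 7 lists with 54 genes in all. In the libraries labelled Hep3B 1, 0 and 4 of them were past the threshold upwards after NaB, after Cur and Pip and with the combination treatment, and 2, 2 and 6 downwards, where 5.02, 6.55 and 6.87% of all genes were higher and 7.07, 4.01 and 8.21% lower. In HepG2 3, 5 and 4 were past it upwards and 0, 3 and 5 downwards, where 4.76, 9.01 and 8.07% of all genes were higher and 5.1, 10.2 and 11.5% lower. Among the genes past it in the same direction in both lines after the combination treatment were MAFF and MAFK upwards, and PSME1 and TAPBP downwards. MAFF, a small MAF protein, was at 24.1, 18.6 and 41.9 FPKM after NaB, after Cur and Pip and with the combination treatment in the libraries labelled Hep3B, against 9.50 FPKM in their control, and at 7.06, 57.8 and 51.1 FPKM in HepG2, against 9.68 FPKM in the control. MAFK, another small MAF protein, was at 41.4, 25.4 and 47.8 FPKM across the libraries labelled Hep3B, against 13.3 FPKM in their control, and at 19.9, 47.6 and 50.5 FPKM in HepG2, against 13.1 FPKM in the control. Their log2 fold changes after the combination treatment were 2.03 and 1.77 in the libraries labelled Hep3B and 2.29 and 1.87 in HepG2, and neither was called by limma (adjusted p = 0.404 and 0.371). NFE2L1, which partners with them, was at 41.3, 65.6 and 54.3 FPKM across the libraries labelled Hep3B, against 52.9 FPKM in their control, and at 58.3, 69.2 and 64.8 FPKM in HepG2, against 61.0 FPKM in the control, with no call.

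The downward calls of PSME1 and TAPBP rest in part on a HepG2 library where they are listed at 0. PSME1, which with PSME2 forms the interferon-inducible PA28 activator, was at 63.7, 64.0 and 33.8 FPKM after NaB, after Cur and Pip and with the combination treatment in the libraries labelled Hep3B, against 110 FPKM in their control, and at 294, 107 and 0 FPKM in HepG2, against 184 FPKM in the control. PSME2 was at 47.3, 78.1 and 35.0 FPKM across the libraries labelled Hep3B, against 48.7 FPKM in their control, and at 96.4, 62.6 and 0 FPKM in HepG2, against 60.3 FPKM in the control. TAPBP, which encodes tapasin of the MHC class I loading complex, was at 20.9, 23.8 and 13.4 FPKM across the libraries labelled Hep3B, against 52.3 FPKM in their control, and at 56.2, 31.5 and 0 FPKM in HepG2, against 66.3 FPKM in the control. Of the 8 genes of interferon-linked antigen processing, none but TAPBP and ERAP1 was past the threshold. After the combination treatment in HepG2, 1 of these 8 was past it downwards by FPKM and 1 by the depth over coding exons. Of the list of 5 activators and inhibitor, which holds PSME1 and PSME2, 2 were past it downwards there by FPKM and 2 by that depth. TAP1, the peptide transporter whose gene neighbours PSMB8 and PSMB9, was at 23.7, 20.5 and 15.6 FPKM across the libraries labelled Hep3B, against 29.7 FPKM in their control, and at 27.5, 21.0 and 32.3 FPKM in HepG2, against 26.7 FPKM in the control, so it was below its control in 4 of 6 comparisons, and PSMB8 in 5 of 6.

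Other parts of the particle and its assembly were measured too. ADRM1, a ubiquitin receptor of the base, was at 85.5, 131 and 293 FPKM after NaB, after Cur and Pip and with the combination treatment in the libraries labelled Hep3B, against 76.0 FPKM in their control, and at 121, 437 and 208 FPKM in HepG2, against 175 FPKM in the control. It was past the threshold after the combination treatment in the libraries labelled Hep3B alone, at 1.93. SEM1, the smallest lid subunit, was at 310, 296.5 and 361 FPKM across the libraries labelled Hep3B, against 277 FPKM in their control, and at 258, 339 and 233 FPKM in HepG2, against 269 FPKM in the control. POMP, the chaperone of core assembly, was at 229, 235 and 252 FPKM across the libraries labelled Hep3B, against 181 FPKM in their control, and at 161, 0 and 81.1 FPKM in HepG2, against 47.3 FPKM in the control. The 0 of POMP after Cur and Pip in HepG2 marks no assigned transcript. By the depth over coding exons POMP was not past the threshold downwards there. Its log2 fold change of 1.75 after NaB in HepG2 was 0.57 by length-free abundance. The tissue-specific subunits PSMA8 of testis and PSMB11 of thymus were at 0 in all 8 libraries.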

How the data were processed

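RNA-seq was done on 8 libraries, 1 for each treatment of each line. The authors made stranded paired-end libraries, aligned reads to GRCh38 using STAR and assembled transcripts by library using Cufflinks. FastQC and Cuffdiff stand in the submitters' processing notes too; versions: not given in the sources used here. Deposited FPKM values, per transcript, came with 95% intervals, and transcript identifiers carry no gene names. No counts were read, so no count test was run. By bedtools 2.31.1, a transcript went to that gene of GENCODE release 44, on its strand, which holds the most, and at least 50%, of its exonic bases, and FPKM was summed per gene; 70.4 to 88.1% of transcripts were assigned. Near-identical or overlapping genes may share reads.

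A fold change is the treated minus the control value of log2(FPKM + 1), called past 1.5 in size, for genes that reach 1 FPKM in any of a line's 4 libraries. The only replication is across lines: a limma 3.58.1 fit (R 4.3.3) on log2(FPKM + 1), with line and treatment as terms and 3 residual degrees of freedom, took genes at 1 FPKM in 2 or more libraries, with Benjamini-Hochberg adjustment over 13888 genes. It was tested on simulated data. The study describes RNA isolation in triplicate, and how that relates to the 1 library per condition is not stated. No condition is repeated within a line, so p-values measure the spread between these libraries only.

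Depth over coding exons spreads the FPKM of every transcript over the annotated coding exons it covers. Length-free abundance is FPKM times assembled length and was chosen after seeing the data. The members, the gene lists and the alternatives were chosen with earlier results of these data known. Every library's value is printed for PSMB5 to PSMB10, for the members highest and lowest in a comparison, for those with the lowest and highest p between the lines, and for members with no assigned transcript in a library; other members are given by range. Of the other genes, those past the threshold the same way in both lines are named, except where not reported here, with ADRM1, SEM1, POMP, PSME1, PSME2, NFE2L1 and TAP1; all others were named after their values were seen. The alternatives were a pseudocount of 0.1 or 5, median-of-ratios scaling, the largest transcript, coding exon depth, transcripts that span genes left out, genes listed in both or all libraries, no filter, a threshold of 1, disjoint intervals and, for limma, a trended prior variance and each library left out. Other steps ran in Python 3.11.15 (matplotlib 3.10.9, scipy 1.17.1, pandas 2.3.3, numpy 2.4.6).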

Additional observations from a re-analysis of the deposited data

Results flagged for a closer look

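In 13 cases a subunit lay on opposite sides of its control in the 2 lines after the same treatment, with Cufflinks intervals apart from the control in each. These were 2 of 29 subunits listed in both lines after NaB (6.9%, against 19.3% of 9329 genes), 7 of 32 after Cur and Pip (21.9%, against 14.8% of 9396 genes) and 4 of 30 after the combination treatment (13.3%, against 15.4% of 9074 genes). By length-free abundance 9 of the 13 still lay on opposite sides and by coding exon depth 12 of the 13. With 1 library per condition the difference between the lines was not tested, and the NaB dose differs between them. PSMA6 had a log2 fold change of 0.30 in the libraries labelled Hep3B and −0.78 in HepG2 after NaB (difference 1.08), and 0.30 and −1.29 after Cur and Pip (difference 1.59). By length-free abundance PSMA6 was at 136% of its control in the libraries labelled Hep3B and at 96.7% in HepG2 after NaB, and at 109 and 71.2% after Cur and Pip. PSMD12 had 0.33 in the libraries labelled Hep3B and −0.27 in HepG2 after NaB (difference 0.601). After Cur and Pip the differences, libraries labelled Hep3B minus HepG2, were −0.438 for PSMA3, 0.634 for PSMA7, −0.886 for PSMB3, 1.65 for PSMB10, −0.725 for PSMC2 and 1.06 for PSMD11. Of these, by length-free abundance PSMA7 (0.19 in the libraries labelled Hep3B and 0.10 in HepG2), PSMC2 (0.36 and 0.53) and PSMD11 (0.24 and 0.57) were above their controls in both lines and PSMB10 (−0.30 and −1.13) below in both, as PSMB10 also was by coding exon depth (−0.04 and −1.21). After the combination treatment they were −0.532 for PSMA1, 1.09 for PSMB1, 0.569 for PSMB3 and 0.569 for PSMD8. No group holds the 4 samples that a check for single outlying samples needs.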

How the results depend on the processing

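The median change of the subunits kept its size within the Cufflinks error under most alternatives. The exceptions were −0.27 after NaB in HepG2 over subunits listed in both libraries, 0.016 after NaB in the libraries labelled Hep3B with median-of-ratios scaling, and by length-free abundance 0.36 after Cur and Pip and 0.045 with the combination treatment in HepG2. PSMA2, called lower in HepG2 after NaB and after the combination treatment because it is at 0 there, turned to 1.43 and 1.31 by coding exon depth, which counts the readthrough transcript over it; no other value named for a subunit turned from a call to the opposite direction. Of the other values for single subunits, 758 stayed within their error or on their side of the threshold, 171 moved by more than the Cufflinks error, and between the lines 40 lost the limma call and 4 gained one. The counts of subunits past the threshold are small and moved with the quantity. With genes listed in both libraries the lower counts were 0, 0 and 3 after NaB, after Cur and Pip and with the combination treatment in HepG2 and 1 after the combination treatment in the libraries labelled Hep3B, with 1 higher after the combination treatment in HepG2. By coding exon depth the lower counts in HepG2 were 1, 0 and 2 in that order of treatments. By the largest transcript they were 3 lower after Cur and Pip and 1 higher after the combination treatment in HepG2, and 1 lower after NaB and 1 higher after the combination treatment in the libraries labelled Hep3B. By length-free abundance 0 were higher after Cur and Pip and with the combination treatment in HepG2, and 1 was lower after NaB in the libraries labelled Hep3B. At a threshold of 1 the counts were 4 higher and 4 lower after Cur and Pip in HepG2, and 1 lower after NaB, 1 higher after Cur and Pip and 2 higher after the combination treatment in the libraries labelled Hep3B. A pseudocount of 0.1 gave 2 higher after Cur and Pip in HepG2, and one of 5 gave 1 higher and 3 lower after the combination treatment in HepG2.

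Genes called by limma after NaB, after Cur and Pip, after the combination treatment and for the excess of the combination numbered 23, 33, 73 and 15 with a pseudocount of 0.1. With a pseudocount of 5, 2 were called after Cur and Pip and 4 with the combination treatment. Over genes listed in all 8 libraries, 0 were called after Cur and Pip, 0 after the combination treatment and 0 for the excess, with 962, 1626 and 245 genes at an unadjusted p under 0.05. A trended prior variance gave 2 after Cur and Pip and 1 for the excess, coding exon depth 1 for the excess, and length-free abundance 27 after the combination treatment and 1 for the excess. Each library left out in turn gave 0 to 3 after Cur and Pip, 0 to 4 after the combination treatment, 0 for the excess and 2209 to 2488 between the lines, from fewer residual degrees of freedom and with the lone library of a treatment assumed to vary like the others. No subunit was called after a treatment under any of these settings, and 0 to 8 subunits were called between the lines. The causes of the other changes were not tested. No paired analysis was possible because the labels give no replicate numbers to pair by; the line, a term of the limma fit, already sets each treated library against the control of its line. The precision is limited by 1 library per condition and by assembly: subunits at 0 in a library may be assigned elsewhere.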

Other observations

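UBB and RPS27A, chosen here after their values were seen, supply the tag that the proteasome reads. UBB, a polyubiquitin gene, was at 732, 0 and 1415 FPKM after NaB, after Cur and Pip and with the combination treatment across the libraries labelled Hep3B, against 284 FPKM in their control, and at 463, 235 and 802 FPKM in HepG2, against 439 FPKM in the control. By the depth over coding exons the log2 fold change of UBB after the combination treatment was 0.95 in the libraries labelled Hep3B and 0.77 in HepG2. The 0 of UBB after Cur and Pip marks no assigned transcript. In that comparison 2 of the 6 genes of ubiquitin and its activating enzymes were past the threshold downwards by FPKM (4.01% of genes). By the depth over coding exons 1 was (2.71% of genes). RPS27A, a ribosomal fusion gene, was at 486, 538 and 535 FPKM across the libraries labelled Hep3B, against 592 FPKM in their control, and at 397, 537 and 410 FPKM in HepG2, against 381 FPKM in the control.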
